A study of Mus musculus with 42 samples.

Results

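RNA polymerase II (Pol II) and the histone mark H3K27ac were compared in wild-type (WT) mouse macrophages after 1 h with lipopolysaccharide (LPS), a molecule of bacterial outer membranes to which these cells respond. The libraries were chosen by their labels alone. They were the 3 Pol II and the 3 H3K27ac chromatin immunoprecipitation (ChIP-seq) libraries labelled WT and 1 h LPS, so 6 of the 42 libraries of the series. The cells were bone marrow-derived macrophages (BMDMs) of male C57Bl6/J mice aged 6 to 12 weeks, differentiated for 7 days with medium conditioned by L929 cells and given LPS at 100 ng/ml. For comparison, the WT libraries at 0 h (no LPS) and 18 h and the libraries of macrophages lacking the nuclear receptor Nur77 (KO) at 0, 1 and 18 h were used, each with 3 libraries per antibody, and the single input library of WT cells at 1 h. The genotype label of the KO libraries names only Cre, whereas the article describes mice that had lost it. The labels do not say which replicates came from separate animals, so each p-value measures the spread between these libraries, which may be technical.

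Pol II is the enzyme that transcribes protein-coding genes. It collects just past the gene start, travels through the gene body and runs on past the end of the gene before it lets go. H3K27ac is an acetyl mark placed on nucleosomes by the coactivators p300 and CBP, and it lies over active promoters and active enhancers, the distal elements that raise the transcription of a gene. Enhancers are themselves transcribed by Pol II at a low rate. LPS is sensed by Toll-like receptor 4, which within minutes releases the transcription factor NF-kB and activates AP-1 at cytokine and chemokine genes.

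The Pol II libraries held 29.0, 21.7 and 25.5 M tags (M, mega; a tag is a mapped read left after duplicates were removed) and the H3K27ac libraries 13.5, 14.0 and 20.9 M. Between 75.3% and 77.9% of the Pol II tags and between 79.96% and 82.1% of the H3K27ac tags lay in the deposited regions. Libraries of one antibody correlated over gene starts at 0.953 to 0.960 for Pol II and at 0.969 to 0.972 for H3K27ac (Pearson, log2 scale, across 9779 starts that are not independent). The first KO H3K27ac libraries at 1 h and 18 h stood apart from the other 2 of their groups, with correlations of 0.876 to 0.901 against 0.979 and 0.985 between the others. Of 14 macrophage genes, 13 carried both signals at the start. None of 5 T cell and 5 fibroblast markers carried either signal, and 1 of 5 B cell, 1 of 6 neutrophil and 2 of 5 erythroid markers carried H3K27ac without Pol II, at no more than 40.7 normalized tags.

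The first question was how the landscapes of the 2 antibodies differ. Pol II gave fewer, mostly narrower and less dense regions than H3K27ac, but with a long tail of very wide ones that ran through genes. The number of regions was 38094, 39959 and 38355 in the Pol II libraries and 41018, 41671 and 42370 in the H3K27ac libraries. The median width was 1279.7 ± 59.0 bp for Pol II against 1692 ± 27.9 bp for H3K27ac (mean ± SD, n = 3 each, as in the following values). At the 90th percentile the order was the opposite, with 7298 ± 475 bp for Pol II and 5185 ± 128 bp for H3K27ac. The widest Pol II region spanned 243903 to 243982 bp and the widest H3K27ac region 64914 to 82650 bp. Together the Pol II regions covered 151 ± 6.42 Mb and the H3K27ac regions 107 ± 4.41 Mb. The median density, in normalized tags (tags per 10 M tags of the library) per kb of region, was 15.1 ± 0.913 for Pol II and 27.2 ± 2.07 for H3K27ac. Densities of 2 antibodies have no common scale.

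**Figure D1:**
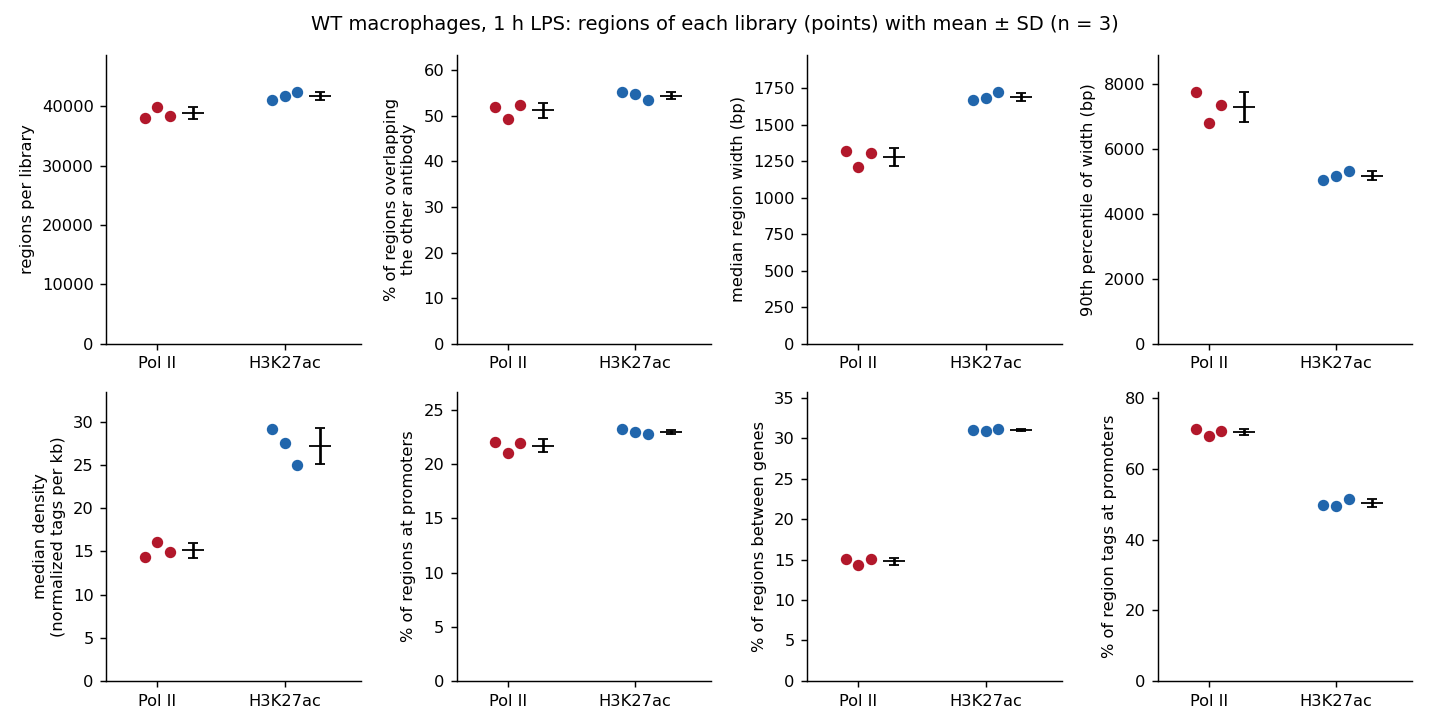
Each panel plots one measure of the regions (y axis, units in the label) in the 3 Pol II and the 3 H3K27ac libraries of WT macrophages at 1 h, with points for libraries and bars for mean ± SD (n = 3). In every panel the libraries of the antibodies do not overlap, and Pol II lies above H3K27ac only for the 90th percentile of width and for the share of tags at promoters.

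The place of the regions differed as well. Promoter regions, those within 1000 bp of the start of a protein-coding gene, made up 21.7 ± 0.591% of Pol II and 23.0 ± 0.203% of H3K27ac regions. Regions elsewhere within a gene made up 63.5 ± 1.04% of Pol II regions against 46.0 ± 0.197% of H3K27ac regions. Regions between genes made up 14.8 ± 0.450% of Pol II regions and 31.0 ± 0.0923% of H3K27ac regions. The promoter regions of Pol II held 70.4 ± 0.931% of its region tags, and those of H3K27ac held 50.4 ± 1.08%.

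Of the regions of a Pol II library, 51.8%, 49.4% and 52.3% overlapped an H3K27ac region found in at least 2 libraries by 1 bp or more. Of the regions of an H3K27ac library, 55.1%, 54.6% and 53.5% overlapped a Pol II region found in at least 2 libraries. For 7 measures tested (number, overlap, median width, median density, promoter share, intergenic share and tags at promoters), the Pol II libraries did not overlap the H3K27ac libraries. The two-sided exact permutation p was 0.1 in each case, the smallest that 3 against 3 libraries allow, and 0.1 after Benjamini-Hochberg adjustment over the 7. So none could pass 0.05 in this design. The overlap depended on how regions were kept. Its difference of -3.24 points was -0.0816 without the replicates numbered 1 (exact permutation p = 1) and -0.936 without those numbered 2 (p = 0.667), when the libraries of the antibodies overlapped, and -2.06 without those numbered 3 (p = 0.333, the smallest that 2 against 2 allow). With a replicate left out, a region of the other antibody had to be in both remaining libraries, a stricter rule. With no replicate left out and regions required in all 3 libraries, the overlap difference was 0.0464 points. The omission and the stricter rule cannot be told apart. The direction of the overlap, width and promoter shares also turned with a density floor common to all 6 libraries (15.8 normalized tags per kb). The differences were then 33.4 points, 609 bp and 18.9 points in favour of Pol II. Without the regions that overlapped an input region, the number of regions (4136 more for Pol II) and the share of tags at promoters (-18.2 points) turned as well. The depth and the search floor also differed between the antibodies, with a search threshold of 11.03 to 12.0 normalized tags per kb for Pol II and 13.4 to 16.3 for H3K27ac. Their part in the differences was not tested.

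Regions found in at least 2 of the 3 libraries of an antibody were then joined, which gave 27730 Pol II regions of 46623 merged ones and 38261 H3K27ac regions of 47869. Most tags lay in regions that overlapped one of the other antibody somewhere, although many regions overlapped none. H3K27ac was found at 17730 of the Pol II regions (63.9%), which held 96.1% of the Pol II tags. Pol II was found at 21114 of the H3K27ac regions (55.2%), which held 92.1% of the H3K27ac tags. By length, the 71.0 Mb under both signals made up 41.5% of the Pol II and 58.6% of the H3K27ac length. As a reference for repeat variation, a single Pol II library covered 48.3% to 52.4% of its regions with those of a single H3K27ac library, against 71.1% to 78.9% with those of another Pol II library. A single H3K27ac library covered 52.1% to 56.3% with Pol II and 85.1% to 90.7% with another H3K27ac library. One Pol II region held up to 26 H3K27ac regions.

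Shared regions were wide and dense. Pol II regions with H3K27ac had a median width of 2579 bp and a median density of 17.4 normalized tags per kb, and those without it 1769 bp and 7.33. H3K27ac regions with Pol II had a median width of 2939 bp and a density of 47.9, and those without it 1483 bp and 15.7. The overlap climbed with density, from 19.7% in the weakest of 10 equal bins of Pol II regions to 99.1% in the densest. For H3K27ac it was 29.9% in bin 1, lowest at 24.9% in bin 3, and 99.9% in bin 10. Wider regions have more room to overlap, and the part of width was not tested. An input region lay under 77.5% of the shared and 31.1% of the unshared Pol II regions, and under 78.1% of the shared and 53.8% of the unshared H3K27ac regions.

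**Figure D2:**
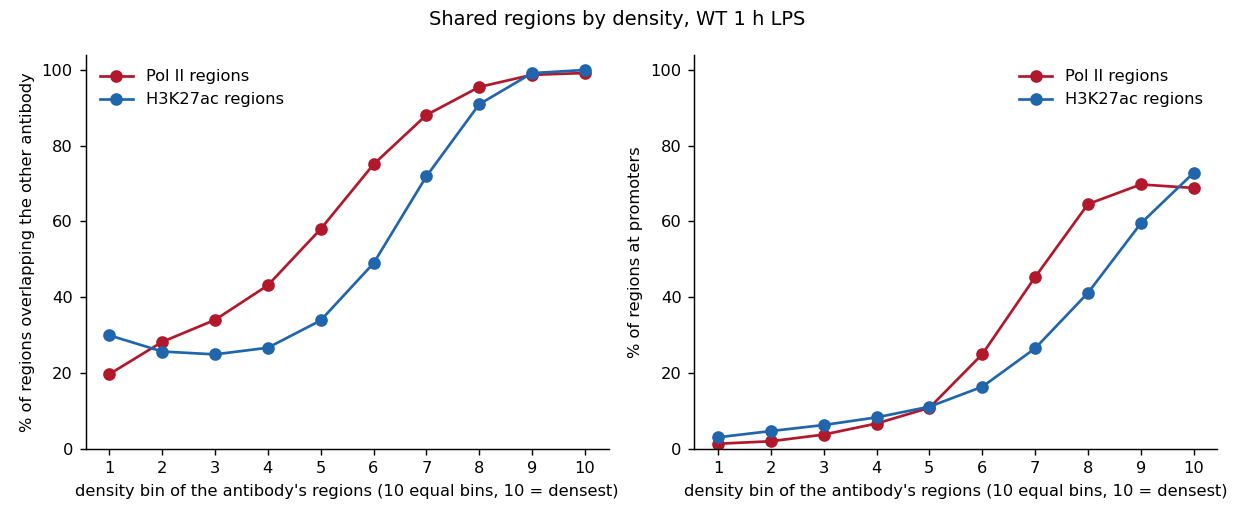
Regions found in at least 2 libraries were ranked by density and split into 10 equal bins (x axis, 10 is the densest). The left panel gives the percentage that overlapped a region of the other antibody and the right panel the percentage at promoters. In bins 9 and 10, 98.7% or more of the regions of either antibody carried the other signal.

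The unshared regions of the antibodies lay in different places. Of the 10000 Pol II regions without H3K27ac, 9012 (90.1%) lay within genes, 821 between genes and only 167 (1.67%) at promoters. Of the genic ones, 8203 (91.0%) lay in genes that carried both signals at their start. Of the 17147 H3K27ac regions without Pol II, 8226 (48.0%) lay between genes, 7794 (45.5%) within genes and 1127 (6.57%) at promoters, and 4566 (58.6%) of the genic ones lay in genes with both signals at the start. Promoters made up 45.7% of the shared Pol II regions and 39.9% of the shared H3K27ac regions.

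Gene starts were taken next, one per protein-coding gene. A start carried a signal when a region found in at least 2 of the 3 libraries reached within 1000 bp of it. Of 21884 starts, 9779 (44.7%) carried both signals, 327 (1.49%) Pol II only, 1285 (5.87%) H3K27ac only and 10493 (47.9%) neither. Where both were present, the median was 49.8 normalized tags of Pol II and 154 of H3K27ac. The means of the 2 signals correlated across these 9779 starts (Pearson 0.722 on the log2 scale, Spearman 0.787). This describes genes of 1 cell type that share libraries, not independent samples. The tags of a region were spread evenly over its length here, so starts inside one wide region got the same Pol II value whichever gene the polymerase was on.

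All 16 genes of the list of early LPS genes carried both signals, and the list median, though not every gene, ranked high by Pol II. Their median Pol II lay at percentile 99.6 of the starts with Pol II and their median H3K27ac at percentile 87.0 of those with H3K27ac. The start windows of Tnf and Nfkbia, which had the highest Pol II of the list, and of Il1b, where both signals were low at 0 h, are shown. The windows run from 250 bases before to 50 after the annotated start, 5′ to 3′ along the gene (RefSeq sequence of GRCm38.p6, the assembly behind mm10), and capitals mark matches to the letters TATAAA or, at Nfkbia, also to the NF-kB letters (GGG, 2 free bases, TTTCC), each on either strand.
Tnf, chr17:35201958-35202257, minus strand: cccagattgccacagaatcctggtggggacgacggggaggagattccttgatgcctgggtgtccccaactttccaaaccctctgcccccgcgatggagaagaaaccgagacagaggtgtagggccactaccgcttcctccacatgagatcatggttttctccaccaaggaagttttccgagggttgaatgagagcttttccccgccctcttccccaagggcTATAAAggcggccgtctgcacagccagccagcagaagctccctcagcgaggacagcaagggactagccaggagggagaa
Nfkbia, chr12:55492598-55492897, minus strand: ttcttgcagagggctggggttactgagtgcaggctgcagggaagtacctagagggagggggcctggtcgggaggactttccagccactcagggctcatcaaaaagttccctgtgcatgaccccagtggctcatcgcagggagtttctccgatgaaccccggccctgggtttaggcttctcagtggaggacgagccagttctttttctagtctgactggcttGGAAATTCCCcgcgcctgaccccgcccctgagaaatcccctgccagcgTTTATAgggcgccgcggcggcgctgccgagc
Il1b, chr2:129371090-129371389, minus strand: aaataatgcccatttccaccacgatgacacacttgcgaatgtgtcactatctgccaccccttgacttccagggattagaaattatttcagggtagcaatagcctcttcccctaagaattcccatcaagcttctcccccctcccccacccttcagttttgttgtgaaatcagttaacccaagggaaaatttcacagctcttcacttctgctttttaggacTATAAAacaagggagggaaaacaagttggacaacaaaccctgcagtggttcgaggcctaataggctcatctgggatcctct

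At Tnf, the gene of the cytokine tumour necrosis factor, Pol II was 6645, 7143 and 7051 normalized tags and H3K27ac 462, 490 and 477. In WT cells at 0 h the means at Tnf were 855 and 315. At Nfkbia, which encodes the NF-kB inhibitor IkB alpha, Pol II was 4596, 4859 and 4645 tags and H3K27ac 421, 337 and 359. At Il1b, the gene of interleukin 1 beta, Pol II was 1928, 1992 and 2028 tags and H3K27ac 206, 170 and 190, against means of 12.1 and 21.99 at 0 h. At each of these starts all Pol II libraries lay above all H3K27ac libraries. A match to the NF-kB letters was in the windows of 4 of the 16 early LPS genes against 1.73% of 21877 windows of all genes, and a match to TATAAA in 5 of 16 against 12.6%. The AP-1 letters (TGANTCA) were in 0 of 16 against 6.92%, the interferon-stimulated element (GAAA, 2 free bases, GAAA) in 0 against 3.55%, and the CRE (TGACGTCA) and PU.1 (GAGGAAGT) letters in 1 each against 2.43% and 3.24%.

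The difference between the signals at a start was tested across all starts with limma on log2(normalized tags + 10), where a call needs an adjusted p under 0.05 and a log2 difference over 1. Values of 2 antibodies have no common scale, and the median difference over the 11346 starts tested was -1.42, so a start is read against that shift. Pol II was higher at 401 starts (3.53%) and H3K27ac at 8549 (75.3%). After each library was centred on its median, the counts were 1147 (10.1%) and 485 (4.27%). Of the early LPS genes, 11 of 16 were called for Pol II and 2 for H3K27ac, with a median log2 difference of 2.28. After centring, 13 were called for Pol II and none for H3K27ac, with a median of 3.69. The shares of all starts called, 3.53% and 75.3% as deposited and 10.1% and 4.27% after centring, are the reference for each list that follows. Tnf had a log2 difference of 3.84 ± 0.0588 (SE; limma adjusted p = 9.04e-08), Nfkbia 3.63 and Il1b 3.33. Tnfaip3, a brake on NF-kB, had 2.34, and the chemokine genes Cxcl1 and Cxcl2 had 3.84 and 3.25. Cxcl1 and Cxcl2 lie in one Pol II region and have the same Pol II value, as do the neighbours Ccl3 and Ccl4 (4043 ± 574 tags each, log2 3.27).

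Some early genes did not have high Pol II at 1 h. At Egr1, an immediate early transcription factor gene, Pol II was 40.2, 35.4 and 22.4 tags and H3K27ac 93.9, 80.6 and 95.6, and at 0 h the Pol II mean was 266. The log2 difference at Egr1 was -1.25 (limma adjusted p = 0.00019), and that at Dusp1, which encodes a phosphatase of MAP kinases, was -1.57. Both lay close to the shift over all starts, with differences of 0.16 and -0.15 after centring, when neither was called. Dusp1 is annotated over a long span, from 26505590 to 26562128 on chromosome 17, and its start here is the outermost one. Over its body, Pol II was 10751 tags at 1 h.

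Of 10 late LPS genes, 7 carried both signals, 1 H3K27ac only and 2 neither, and 3 of the 8 tested were called for Pol II (5 after centring) and none for H3K27ac under either scaling. Acod1, which makes the metabolite itaconate, had 4578 ± 155 tags of Pol II and 251.3 ± 3.56 of H3K27ac (log2 4.13). Il12b, which encodes a subunit of interleukin 12 and interleukin 23, had 563 ± 14.7 and 50.8 ± 0.747 (log2 3.23). Il12a had H3K27ac only, at 8.17 ± 2.38 tags. The starts of Marco and Lcn2 carried neither.

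All 10 interferon-response genes carried both signals, with 3 called for Pol II and none for H3K27ac and a median log2 difference of -0.01. That median lies above the shift of -1.42 over all starts, and after centring it was 1.41, with 8 of 10 called for Pol II and none for H3K27ac. As deposited, the called ones were Rsad2, an antiviral enzyme gene (2157 ± 220 tags of Pol II against 264 ± 14.9 of H3K27ac), Cxcl10, a chemokine gene (1273 ± 275 against 269 ± 5.72), and Mx1 (557 ± 16.9 against 258 ± 11.6). Cmpk2 shares its H3K27ac value with its neighbour Rsad2. The other 6 had log2 differences between -0.94 and 0.10.

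Of 15 genes of the AP-1 family, 14 carried both signals, 1 was called for Pol II and 7 for H3K27ac, a share for H3K27ac of 46.7% beside 75.3% of all starts. The balance turned after centring, with 5 called for Pol II and none for H3K27ac and a median log2 difference of 0.56. As deposited, Jdp2 was the one called for Pol II, at 564 ± 9.26 against 175 ± 8.84 tags, and Atf7 had the largest difference the other way, at 42.2 ± 1.84 against 229 ± 12.2. Junb had 889 ± 150 tags of Pol II and 678 ± 51.9 of H3K27ac, percentiles 99.3 and 99.7. The outermost start of Atf3 carried 10.4 ± 2.69 tags of H3K27ac and no Pol II, while Pol II over the body of Atf3 was 8227 tags.

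Of 14 macrophage genes, 2 were called for Pol II, Cd14 (936 ± 59.4 against 400 ± 47.0 tags; log2 1.21) and Lyz2, which encodes lysozyme (368 ± 39.9 against 133 ± 7.19; log2 1.40). After centring, 7 were called for Pol II and 1 for H3K27ac. As deposited, H3K27ac was called at 4 (28.6% beside 75.3% of all starts), among them Itgam, an integrin gene (30.1 ± 4.27 against 98.6 ± 7.55; log2 -1.44, or -0.03 after centring), and Csf1r (-4.25, or -2.84 after centring), the receptor of the growth factor that keeps macrophages alive. Of 15 lysosome genes, all with both signals, 10 were called for H3K27ac and 1, the protease gene Ctsl, for Pol II (494 ± 18.9 against 124 ± 25.7 tags). The 66.7% of lysosome genes called for H3K27ac stand beside 75.3% of all starts, and after centring none were called for H3K27ac and 2 for Pol II. Their median log2 difference was -1.09, or 0.33 after centring.

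Genes of sterol synthesis and of DNA replication and mitosis had the lowest median Pol II of the gene lists other than the 5 lists of other cell types, whose medians were 0. Of 12 sterol genes, 10 were called for H3K27ac and none for Pol II, and Fdps and Lss carried H3K27ac only. Over all 12 the median was 28.7 tags of Pol II. The 10 sterol genes with Pol II had their median at percentile 32.8 of the starts with Pol II, and the median H3K27ac of the 12 was at percentile 39.9. Of 12 replication and mitosis genes, 10 were called for H3K27ac, and Mcm2, Mcm3, Cdk1 and Ccnb1 carried H3K27ac only. All 12 had both signals at 0 h. Their median Pol II at 1 h was 14.6 tags. The 8 with Pol II had their median at percentile 18.2, and the median H3K27ac of the 12 was at 26.9. Cdk1, the kinase that drives entry into mitosis, had 0, 0 and 7.05 tags of Pol II and 50.2, 50.7 and 52.5 of H3K27ac. Medians of -1.72 (sterol) and -1.70 (replication) stand beside -1.42 over all starts, and a share called for H3K27ac of 83.3% in each list beside 75.3%. After centring, 1 sterol gene and no replication gene was called for H3K27ac, and 1 replication gene and no sterol gene for Pol II, so all but 1 of these 20 calls were lost.

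Of 82 cytosolic ribosomal protein genes, 79 carried both signals, 43 were called for H3K27ac and 2 for Pol II. The share called for H3K27ac, 54.4% of those tested, was below the 75.3% of all starts, and after centring the counts were 1 for H3K27ac and 10 for Pol II. Of 67 histone genes of the replication-dependent kind, 60 carried both and 2 Pol II only, 7 were called for Pol II and none for H3K27ac, and the median log2 difference was 0.27. After centring, 58 of the 62 tested were called for Pol II, beside 10.1% of all starts, with a median of 1.68. Histone genes lie in tight clusters, so their regions are often shared. Of 7 reference genes 1 was called for Pol II, the actin gene Actb (2037 ± 49.6 against 721 ± 43.8 tags), and 3 for H3K27ac (1 and none after centring). The highest value of both signals, 15679 ± 3304 and 6379 ± 1224 tags, was at Gm10800, a predicted gene within one 1134 bp region. No input was subtracted from these values.

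Of all starts, the largest differences toward Pol II were at Heatr9 (log2 7.06), Ltb (5.76), Fam71a (5.57), Gm36079 (5.37) and Mybpc3 (5.25), with limma adjusted p between 9.04e-08 and 1.12e-06. Each lay in a wide Pol II region with a neighbour. Heatr9 lay 8343 bp from the start of the chemokine gene Ccl5 in a region of 34826 bp, Ltb lay 7568 bp from the start of Tnf in the Tnf region of 12402 bp, and Mybpc3 lay in the 66521 bp region of Spi1, which encodes the macrophage factor PU.1. The largest differences toward H3K27ac were at Slamf7 (-4.73), Lrr1 (-4.40), Ap5s1 (-4.34), Siglece (-4.29) and Csf1r (-4.25), with limma adjusted p between 1.92e-07 and 6.32e-07. At all 5 of these starts Pol II was 0 in every library. Where one signal is at or near 0 the size and order of these differences depend on the number added before the log. With 1 tag in place of 10 they were 9.47 at Heatr9, 8.86 at Fam71a, 8.66 at Gm36079, 7.77 at Mybpc3 and 5.87 at Ltb, and -7.9998 at Slamf7, -7.66 at Lrr1, -7.59 at Ap5s1, -7.54 at Siglece and -7.50 at Csf1r.

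Genes with one signal high and the other absent were sought in the top 25% of the starts that carried the signal, above 76.3 normalized tags for Pol II and 224 for H3K27ac. Absent meant 0 tags in all 3 libraries. High Pol II without H3K27ac was found at 49 of the 2527 starts above the Pol II threshold (1.94%, or 0.224% of all starts). A further 6 Pol II-only starts above the threshold, 55 in all, had H3K27ac above 0 in 1 library. They were Heatr9 (1848 tags of Pol II), Mybpc3 (459), the cytokine gene Csf2 (117), Apc2, Ptprcap and Kcnk7. The lowest of the 49 had 77.7 tags and the next Pol II-only start below had 76.1. Every one of the 49 lay in a Pol II region that also held the body of another gene. In 43 the region covered another start with both signals, and 43 lay inside or up to 10000 bp past the end of a gene with both, with 45 meeting at least 1 of these. Of the 49, 14 lay inside another gene and 31 had an H3K27ac region within 5000 bp. Of the starts with both signals, 32.2% had a Pol II region covering another such start. The share inside or up to 10000 bp past a gene with both was 32.1%. For the other counts no share of all starts was computed. The median Pol II region width was 29204 bp at the 49 and 4188 bp at starts with both, and the part of width was not tested. In KO cells at 1 h 47 of the 49 again carried Pol II only, and in WT cells 46 did at 0 h and 44 at 18 h.

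The start windows of Fam71a and Il17c are shown as examples of starts under Pol II that lie past the end of another gene. Capitals again mark TATAAA, and the window of Fam71a held none of the letters searched.
Fam71a, chr1:191164768-191165067, minus strand: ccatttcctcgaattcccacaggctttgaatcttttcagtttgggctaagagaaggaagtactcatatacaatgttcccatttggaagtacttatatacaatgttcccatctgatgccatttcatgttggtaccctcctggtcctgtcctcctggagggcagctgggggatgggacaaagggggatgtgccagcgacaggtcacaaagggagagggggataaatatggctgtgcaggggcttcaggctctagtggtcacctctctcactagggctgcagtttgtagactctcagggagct
Il17c, chr8:122421770-122422069, plus strand: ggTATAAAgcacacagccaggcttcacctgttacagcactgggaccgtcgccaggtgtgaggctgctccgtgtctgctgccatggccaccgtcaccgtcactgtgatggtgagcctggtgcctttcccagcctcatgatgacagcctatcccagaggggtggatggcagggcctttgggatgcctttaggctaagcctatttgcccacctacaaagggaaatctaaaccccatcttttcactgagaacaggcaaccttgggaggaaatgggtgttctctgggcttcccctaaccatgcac

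Fam71a had 470, 450 and 471 tags of Pol II and no H3K27ac region in any library, and its start lay 5479 bp past the end of Atf3, in the same 31472 bp Pol II region. Fam71a had Pol II means of 361 at 0 h and 585 at 18 h, with H3K27ac at 0. Rcvrn, which encodes a protein of photoreceptors, had 319, 343 and 339 tags, lay 6336 bp past the end of Gas7 in a region of 130176 bp and had a mean of 9.23 at 0 h. The uncharacterised gene 4930469K13Rik had 311 ± 1.46 tags 6259 bp past the end of Lcp2, an adaptor gene of immune receptor signalling, and 37.3 at 0 h. Il17c, a cytokine gene of epithelial cells, had 214, 206 and 250 tags 2756 bp past the end of Cyba, which encodes a subunit of the phagocyte oxidase. Iqcn lay 2841 bp past Jund, 1700001P01Rik 1609 bp past Rpl23 and Dqx1 36 bp past Aup1, with 244 ± 7.93, 243 ± 6.76 and 195 ± 8.15 tags. Gm36079, Dpep3 and Ghrl completed the 10 highest of the 49, at 403 ± 10.9, 193 ± 3.04 and 192 ± 1.74 tags. These 10 carried Pol II only at every WT time as well as in KO cells at 1 h. Heatr9, with more Pol II than any of them and 16.8 tags of H3K27ac in 1 library, carried neither signal at 0 h and both at 18 h.

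Of the 327 starts with Pol II only, 284 (86.9%) lay inside or up to 10000 bp past the end of a gene with both signals, against 32.1% of the starts with both. In 127 (38.8%) the region covered another start with both, against 32.2% of the starts with both. The class recurred, with 258 (78.9%) in KO cells at 1 h, 269 (82.3%) in WT cells at 0 h and 257 at 18 h. CpG dinucleotides in the start windows, given as observed over expected, had a median of 0.302 at starts with Pol II only, 0.565 at starts with H3K27ac only, 0.772 at starts with both, 0.249 at starts with neither and 0.524 over all.

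High H3K27ac without Pol II was found at 1 of 2766 starts (0.0362%, or 0.00457% of all starts), that of Slamf7, which encodes a receptor of the SLAM family on immune cells. H3K27ac at Slamf7 was 346, 253 and 190 tags, and the next start of this class below the threshold, Lrr1, had 201. No Pol II region reached the start of Slamf7 in any library, but one lay 2551 bp away and the gene body held 7242 ± 171 tags of Pol II. Slamf7 carried neither signal at 0 h, 10.3, 138 and 196 tags of H3K27ac at 18 h, and in KO cells at 1 h 5.87, 0 and 0 tags. The count rested on single libraries, since it was 0 without the replicates numbered 1, 3 without those numbered 2 and 1 without those numbered 3. With the top 50% in place of the top 25%, a choice made after seeing the data, 10 starts had high H3K27ac without Pol II and 82 high Pol II without H3K27ac.

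The start windows of Lrr1 and Siglece are shown as H3K27ac-only starts of unlike base composition, with a CpG ratio of 0.833 at Lrr1 and 0.0448 at Siglece. Neither window held any of the letters searched.
Lrr1, chr12:69168564-69168863, plus strand: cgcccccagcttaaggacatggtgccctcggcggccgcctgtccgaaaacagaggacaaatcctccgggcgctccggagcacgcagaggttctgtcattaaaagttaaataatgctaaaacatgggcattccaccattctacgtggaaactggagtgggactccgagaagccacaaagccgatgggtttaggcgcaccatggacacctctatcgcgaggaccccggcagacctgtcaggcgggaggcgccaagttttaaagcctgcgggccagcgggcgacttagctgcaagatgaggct
Siglece, chr7:43660112-43660411, minus strand: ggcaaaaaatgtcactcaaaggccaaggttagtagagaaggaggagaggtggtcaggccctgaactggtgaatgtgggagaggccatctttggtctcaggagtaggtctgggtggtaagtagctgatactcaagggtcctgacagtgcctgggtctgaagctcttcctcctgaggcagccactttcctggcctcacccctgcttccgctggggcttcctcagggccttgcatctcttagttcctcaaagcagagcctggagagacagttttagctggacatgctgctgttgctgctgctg

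Lrr1, a substrate receptor of a ubiquitin ligase in DNA replication, had 204, 182 and 218 tags of H3K27ac, and its Pol II mean was 36.2 at 0 h and 8.62 at 18 h. Siglece, which encodes a sialic acid-binding receptor of myeloid cells, had 188, 193 and 176 tags of H3K27ac at 1 h, and its Pol II mean was 11.1 at 0 h and 32.6 at 18 h. Csf1r had 201, 171 and 171 tags of H3K27ac at 1 h. Pol II at the start of Csf1r was 289, 344 and 321 tags at 0 h, 0 in all 3 libraries at 1 h and 29.2, 31.1 and 23.0 at 18 h, and it was 0 in the 3 KO libraries at 1 h. The Pol II region nearest to the start of Csf1r at 1 h lay 4038 bp away, and the gene body still held 849 ± 17.5 tags. The start of Csf1r used here is the outermost annotated one, and starts further inside the gene were not examined. Ap5s1, a subunit gene of an adaptor complex of late endosomes, had Pol II means of 71.6 at 0 h and 123 at 18 h and 0 at 1 h, with 203, 186 and 187 tags of H3K27ac. Hyal1, a hyaluronidase gene, had Pol II of 7.41, 0 and 0 tags at 1 h and means of 107 at 0 h and 174 at 18 h. At Cxcr6, a chemokine receptor gene, the H3K27ac libraries differed widely, with 269, 16.8 and 303 tags. The mean of H3K27ac at these starts also differed between times, and no test was run. Its libraries at 1 h and 18 h overlapped at Lrr1 and at Siglece. Its WT means at 0, 1 and 18 h were 272, 181 and 334 tags at Csf1r, 349, 192 and 457 at Ap5s1, 250.1, 201 and 212 at Lrr1, and 72.6, 185 and 163 at Siglece. The WT Pol II libraries at 1 h, 0 h and 18 h did not overlap at Csf1r, Ap5s1, Lrr1 and Siglece. No test was run on these time courses. These starts were named for a large difference with Pol II at 0 in every library at 1 h. A separation of 1 h from times with Pol II was therefore set by the choice. In KO cells at 1 h Pol II was 0 in all 3 libraries at Ap5s1. In those cells it was 0, 0 and 6.03 tags at Lrr1 and 0, 13.5 and 10.6 at Siglece. Fewer reads and a region that just missed the search floor cannot be told apart from an empty start.

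**Figure D3:**
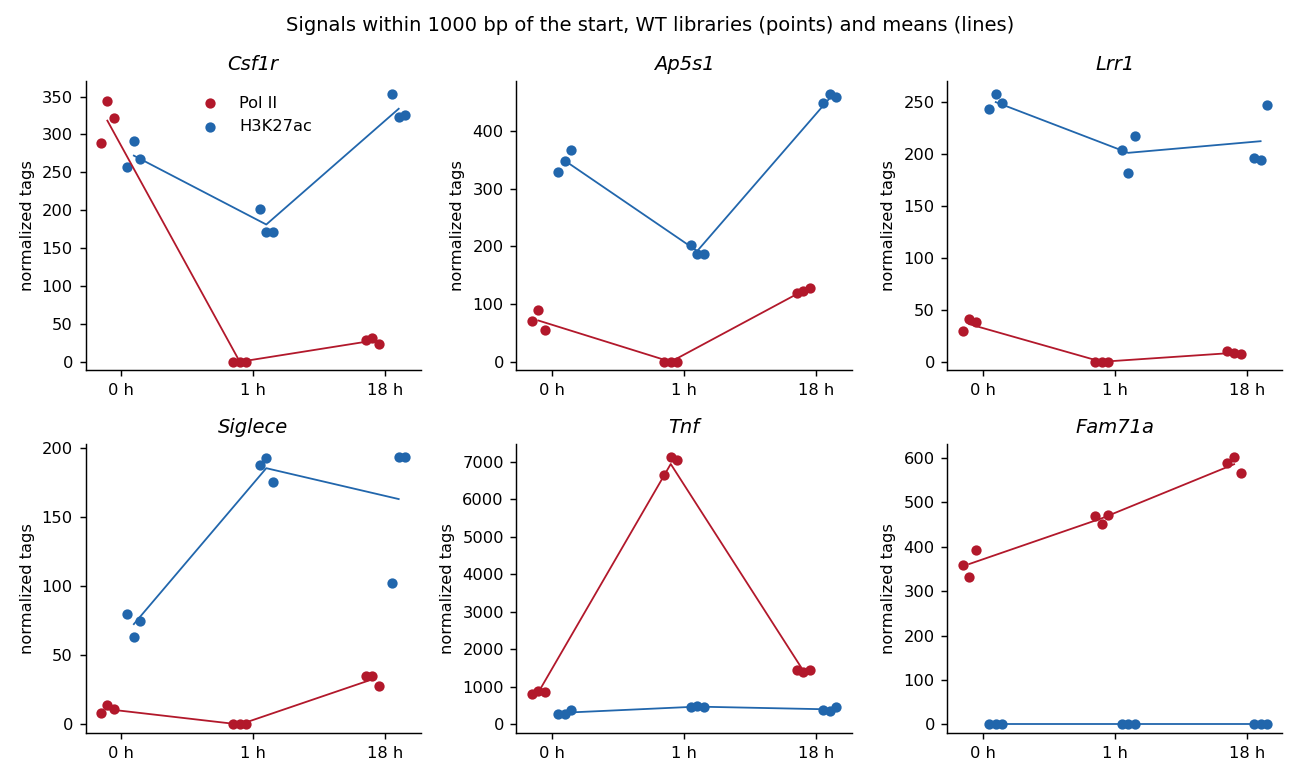
Normalized tags within 1000 bp of 6 gene starts (y axis) in each WT library at 0, 1 and 18 h (x axis), with lines through the means of 3 libraries. At Csf1r, Ap5s1, Lrr1 and Siglece the 3 Pol II libraries at 1 h lie at 0 and the H3K27ac libraries of that time between 171 and 218 tags, and at Fam71a H3K27ac lies at 0 throughout.

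Of the 1285 starts with H3K27ac only, 864 had both signals in WT cells at 0 h and 682 at 18 h. Of all 21884 starts, 48.6% carried both signals at 0 h. Their Pol II had been low, with a median of 20.8 tags at 0 h against 65.2 at the 9770 other starts with both at that time. Their H3K27ac was low as well, with medians of 41.0 against 156 tags at 0 h and 24.3 against 154 at 1 h. In KO cells at 1 h 762 (59.3%) again carried H3K27ac only. Pol II depth in WT was 21.7 to 29.0 M tags at 1 h and 26.1 to 36.1 M at 0 h, and the part of depth in these counts was not tested.

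The overlap itself was compared with the other times. The share of H3K27ac regions overlapping Pol II was lower at 1 h in both genotypes. In WT it was 54.4 ± 0.853% at 1 h, 67.9 ± 1.496% at 0 h and 69.5 ± 3.01% at 18 h, and in KO 55.6 ± 1.74%, 64.6 ± 1.03% and 64.8 ± 3.13%. The difference over both genotypes was -11.2 points against 0 h and -12.1 points against 18 h, each with p = 0.005 (exact permutation within genotype, two-sided, 400 relabelings; 0.00667 after adjustment over 4 comparisons), and no library at 1 h reached the lowest library of the other times. The share of Pol II regions overlapping H3K27ac was higher at 1 h, by 4.86 points against 0 h (exact permutation p = 0.005, adjusted 0.00667) and 2.89 points against 18 h (p = 0.01, adjusted 0.01). In WT it was 51.2 ± 1.59% at 1 h, 47.3 ± 0.587% at 0 h and 48.9 ± 0.710% at 18 h, and in KO 55.2 ± 0.467%, 49.3 ± 1.75% and 51.7 ± 1.11%. The smallest p this test allows is 0.005. In WT alone the Pol II differences were 3.83 points (exact permutation p = 0.1) and 2.28 points (p = 0.2, with libraries that overlapped), and those of H3K27ac were -13.5 and -15.1 points (p = 0.1 each), where 0.1 is the smallest that 3 against 3 libraries allow. Without the libraries numbered 1, which include both KO H3K27ac libraries that stood apart, the 4 differences were -11.3, -13.0, 4.81 and 2.82 points, each with an exact permutation p of 0.0556, the smallest then possible. The number of Pol II regions per WT library also differed, 38803 on average at 1 h against 57094 at 0 h and 47989 at 18 h, and its part in the overlap was not tested.

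**Figure D4:**
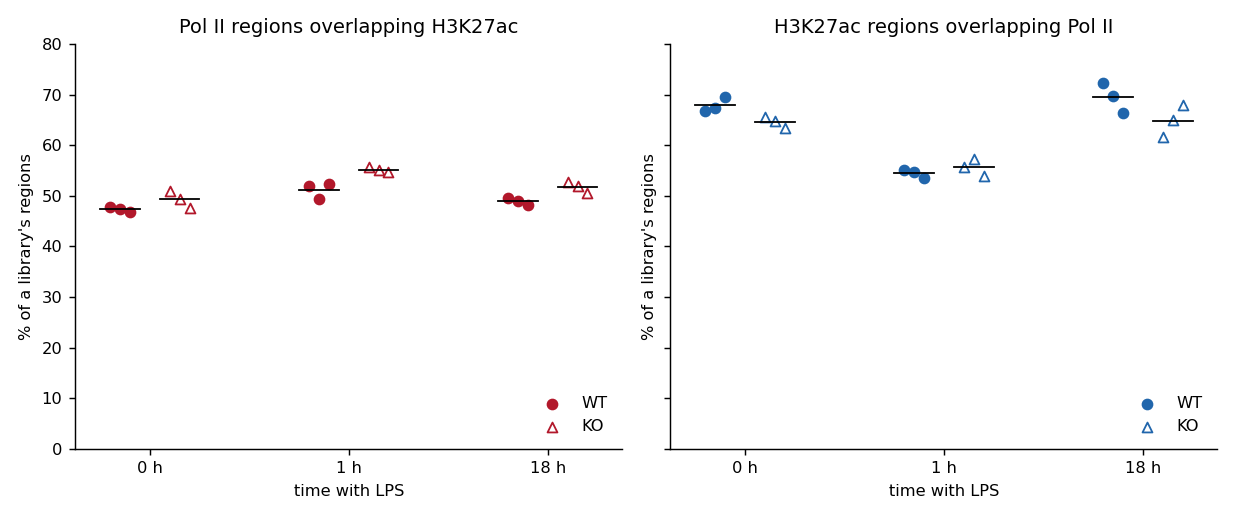
Percentage of a library's regions that overlap the other antibody (y axis) by time with LPS (x axis) in WT (filled circles) and KO (open triangles), with bars at the means of 3 libraries. In the right panel the H3K27ac libraries at 1 h lie between 53.5% and 57.3%, below all libraries at 0 and 18 h.

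Away from gene starts Pol II was found at fewer H3K27ac regions. Of 27894 H3K27ac regions further than 2500 bp from the outermost start of any protein-coding gene, 12334 (44.2%) carried Pol II. Of the 10367 regions nearer, 84.7% did. With the starts of all annotated genes in place of protein-coding ones, 10615 distal regions carried both signals. Within genes the share was 54.3% and between genes 29.3%. Distal regions with both signals were wider and denser than those with H3K27ac only, with medians of 2866 against 1502 bp and 32.1 against 15.6 normalized tags of H3K27ac per kb. An input region lay under 79.1% and 55.5%. Pol II was found at 0 h at 86.9% of the former and 45.3% of the latter, and in KO cells at 1 h at 95.5% and 13.2%. The AP-1 letters TGANTCA, on either strand of the central 300 bases, were in 13.9% of distal regions with both signals and 17.0% of those with H3K27ac only, and the PU.1 letters GAGGAAGT in 4.31% and 6.12%.

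The strongest distal H3K27ac region with Pol II was chr11:86567683-86631228, a stretch over the gene Vmp1 and the microRNA gene Mir21a, with 16795, 17171 and 18042 tags of H3K27ac and 25484, 24623 and 26693 of Pol II. The next was chr14:75157832-75203284 within Lcp1, which encodes the actin-bundling protein L-plastin, with 11742, 12089 and 12499 tags of H3K27ac and 10398, 10452 and 10663 of Pol II. The WT means over the Lcp1 region at 0 h were 6905 and 4950. The centre of this region is printed because it held both the NF-kB and the AP-1 letters, in capitals (GRCm38.p6, plus strand).
Lcp1 region, chr14:75180409-75180708: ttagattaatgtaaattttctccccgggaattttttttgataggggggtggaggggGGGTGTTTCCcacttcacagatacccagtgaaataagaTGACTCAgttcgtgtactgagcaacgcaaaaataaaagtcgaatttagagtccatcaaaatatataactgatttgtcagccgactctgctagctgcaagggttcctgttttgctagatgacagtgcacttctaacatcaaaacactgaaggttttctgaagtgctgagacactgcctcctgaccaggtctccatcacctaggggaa

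The third, chr6:97416036-97469835 within Frmd4b, had 12109 ± 285 tags of H3K27ac and 4885 ± 103.4 of Pol II. The strongest distal regions with H3K27ac only were chr14:73167209-73181919 within Rcbtb2 (586 ± 40.3 tags of H3K27ac), chr17:5567956-5577847 within Zdhhc14 (581 ± 46.5) and chr2:135818729-135826975 within Plcb4 (531 ± 10.2), with Pol II of 2.16 tags at the first, 0 at the second and 4.31 at the third as means of 3 libraries. At 0 h the regions in Rcbtb2 and Zdhhc14 had carried 1134 and 318 tags of Pol II and 2642 and 1625 of H3K27ac, whereas that in Plcb4 had 2.23 of Pol II and 200.6 of H3K27ac.

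Between genes, 3553 Pol II regions lay with H3K27ac and 781 without, all further than 2500 bp from a protein-coding start. The strongest with H3K27ac, chrX:19138560-19187022, covered the microRNA genes Mir221 and Mir222 and the transcript Gm14636. It had 32442, 32359 and 32927 tags of Pol II and 5617, 5633 and 5943 of H3K27ac, against means of 10741 and 3443 at 0 h. The mature microRNAs under this region and under the Vmp1 region are shown, with the seed (bases 2 to 8) in capitals (RefSeq, GRCm38.p6). Those of Mir221 and Mir222 share their seed.
miR-21a-5p: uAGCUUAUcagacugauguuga
miR-221-3p: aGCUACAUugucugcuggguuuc
miR-222-3p: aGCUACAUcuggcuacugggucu

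Next came chr13:55177061-55194242, 8302 bp past the end of Fgfr4 and with no annotated gene in it (22033 ± 1186 tags of Pol II and 1832 ± 106 of H3K27ac), and the 247210 bp region chr16:77325105-77572315 over the long transcript Mir99ahg (8791 ± 183 and 1258 ± 65.5). Of the 781 intergenic Pol II regions without H3K27ac, 519 (66.5%) lay up to 10000 bp past the end of a gene with both signals, against 11.03% of those with H3K27ac. The strongest, chr17:29103795-29109244, lay 3068 bp past the end of Cdkn1a, which encodes the cell cycle inhibitor p21, with 1456, 1422 and 1558 tags of Pol II, no H3K27ac in any library and a mean of 140 at 0 h. The second, chr3:96482729-96486742, covered the small nuclear RNA gene Gm25890 and had 430 ± 11.3 tags, and the third, chr16:3770473-3786906, covered the non-coding gene Gm41409 and had 368 ± 24.0.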

How the data were processed

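ChIP-seq regions of Pol II and H3K27ac in BMDMs were used as deposited, one list per library, with groups taken from the sample titles. Per the labels and the article, the authors trimmed and aligned reads to mm10 with HISAT2 2.1.0, removed duplicates and called broad regions in single libraries with HOMER, with no input subtracted. HOMER windows were 500 bp wide, needed a Poisson p of 0.001 and were joined across gaps under 1000 bp (per the file headers), and the deposited signal is the number of tags per 10 M tags of the library. A region not found was set to 0, which is not an absence of reads, and a region partly in a window was shared out by length. Without counts, intervals for counting error were not computed.

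For each antibody, overlapping regions of its 3 libraries were merged, kept when found in at least 2 and compared by an overlap of 1 bp or more (Python 3.11.15, pandas 2.3.3). Gene starts are the outermost annotated starts of 21884 protein-coding genes of GENCODE vM21 (GRCm38), after 54 entries with duplicate symbols were left out. Promoter means within 1000 bp, genic any other overlap with a protein-coding gene body, and intergenic the rest. Pol II over a gene body was summed from 500 bp before to 500 bp past the gene. Starts above 0 in at least 2 libraries of either antibody were compared with limma 3.58.1 (R 4.3.3; trended prior, Benjamini-Hochberg), which was tested on simulated data, and libraries with exact permutation tests. Start windows were read for 21877 genes, and the 5576 RefSeq promoters at the same start were identical to them. Besides TATAAA, the letters searched on both strands were those of NF-kB, AP-1 (TGANTCA), CRE (TGACGTCA), PU.1 (GAGGAAGT) and an interferon-stimulated element (GAAA, 2 free bases, GAAA). They were searched separately and may overlap.

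Members and lists were chosen with earlier results of these data known. Named were list genes as examples, the 10 highest starts of each class with 1 signal high and the other absent, the 5 largest limma differences in each direction with libraries apart, and the 3 strongest distal regions of each kind. Gm10800, Cxcr6 and Hyal1 were named after their values were seen. The alternatives covered the region set, the search floor, the overlap rule, the windows, the annotation, the scaling, the pseudocount, the replicate block and each replicate left out. The other input libraries were not used.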

Additional observations from a re-analysis of the deposited data

Results flagged for a closer look

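The number of regions differed between the antibodies in opposite directions at different times. In WT macrophages at 1 h the mean number of Pol II regions minus that of H3K27ac regions was -2884. At 0 h it was 13315 and at 18 h it was 8580, with every library of one antibody on the same side in each case. The difference between the times was not tested. The mean number of Pol II regions per WT library was 57094 at 0 h, 38803 at 1 h and 47989 at 18 h. Pol II depth in WT was 26.1 to 36.1 M tags at 0 h, 21.7 to 29.0 M at 1 h and 26.2 to 35.1 M at 18 h, and the part of depth was not tested.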

How the results depend on the processing

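Of 256 values recomputed under an alternative, 224 kept their direction and their side of the threshold, or moved by less than the replicate spread or 1.5 times for counts. With regions over an input region left out, Pol II had 4136 more regions than H3K27ac instead of fewer and a lower share of tags at promoters (-18.2 points). The same setting gave 2086 starts with both signals, 560 with Pol II only, 68 with high H3K27ac and no Pol II, and 1741 distal regions with both. Input regions hold 93.6% of the Pol II and 91.6% of the H3K27ac tags, so it removes most of the signal. The share overlapping the other antibody was higher for Pol II with the top 50% by density (1.21 points), with regions found in all 3 libraries (0.0464 points) and with a common density floor (33.4 points), and that floor also turned the median width (609 bp) and the promoter share (18.9 points). The cause was not tested.

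Calls toward Pol II and H3K27ac numbered 890 and 764 with quantile normalization and 1147 and 485 with median centring, which remove the overall shift between antibodies. High H3K27ac without Pol II was found at 2 starts with windows of 500 bp, at 0 to 3 without a replicate and at 10 with the top 50% as high, where 82 starts had high Pol II without H3K27ac. Without a replicate, the differences at 1 h ranged from 3.10 to 5.31 points for Pol II against 0 h and from 2.16 to 4.18 against 18 h, and from -11.3 to -9.82 and from -13.0 to -11.8 for H3K27ac, with an exact permutation p of 0.0556 at best. Deviations of same-numbered Pol II and H3K27ac libraries correlated at -0.00398, -0.0144 and -0.0228 over 9779 starts. Those of differently numbered libraries correlated at -0.00900 to 0.0249. Such values cannot show whether same-numbered libraries share chromatin or an animal. A replicate block gave 403 and 8553 calls and changed none of 19 results. A region just under the search threshold counts as absent, and the part of depth in this was not tested.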
